A study of Mus musculus with 16 samples.

Results

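Cultured keratinocytes of trisomic Ts1Rhr mice (Ts) were compared with those of euploid mice (WT) after the phorbol ester TPA. The difference of means rests on 4 Ts-TPA and 4 WT-TPA arrays, 8 of the 16 in the series. The main fit took the spread of a gene from all 16 arrays and treated them as independent. The other 8 arrays are untreated cultures (Ts-NT and WT-NT, 4 each). All cultures were skin keratinocytes of P1 pups on the FVB/N strain, each grown from 1 pup, and treated cultures had received 0.2 μM TPA for 12 h. Ts cells carry 1 extra copy of a segment of mouse chromosome 16, from Cbr1 to Fam3b, that is orthologous to part of human 21q22. That segment came from another strain and was bred onto FVB/N, so alleles of the donor strain may still lie in and beside it. Probes entered the comparison if 4 or more of the 8 TPA arrays, of either genotype, gave them a detection p of 0.01 or below. This left 7434 of 25697 probes and 5497 of 16593 genes.

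TPA stands in for diacylglycerol and switches on protein kinase C. In keratinocytes this kinase acts through Ras, ERK and the AP-1 transcription factors, and it drives both proliferation and terminal differentiation, along with secretion of cytokines and matrix proteases. In mouse skin repeated TPA promotes papillomas from initiated cells. The Ts1Rhr segment holds regulators such as Dyrk1a, a kinase that restrains NFAT, Ets2, a transcription factor that ERK phosphorylates, and Ttc3, a ubiquitin ligase known in human cells to act on Akt.

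Every Ts-TPA array had a brighter background than every WT-TPA array, 199 to 239 against 140 to 151 raw intensity units (median of probes with a detection p above 0.5). The upper end of the signal overlapped, with a 95th percentile of 889 to 1198 against 805 to 1091. Detected probes numbered 6371 to 7928 on Ts-TPA arrays and 6950 to 8688 on WT-TPA arrays, and Ts-TPA replicate 1 had the most of the Ts-TPA arrays. The variance stabilizing model fitted a background to each array. After it the median of all probes still lay 0.21 lower in Ts-TPA on the log2 scale, so each array was centred on its own median and each value below is a log2 intensity on that scale. A difference is Ts-TPA minus WT-TPA relative to the median of all probes, given with its standard error (n = 4 and 4). That error takes its spread from treated and untreated arrays together. Genes counted as above the median are those whose difference is positive on this scale. Background brightness and genotype cannot be told apart in these arrays. Of the keratinocyte markers, all 12 on the array were detected on all 8 arrays. No immune, endothelial or skeletal muscle marker passed the filter.

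No gene differed between Ts-TPA and WT-TPA at an adjusted p under 0.05 (limma, 0 of 5497 genes, 0%), and the lowest adjusted p was 0.0888. With the replicate number as a block 1 gene was called (0.0182%). At an unadjusted p under 0.05 lay 359 genes higher in Ts-TPA and 270 lower, and 512 and 445 with the block. Which side held more genes turned with the scaling: the counts were 247 higher and 350 lower with neqc, a background correction built from the detection p, 236 and 320 with quantile normalization, 248 and 328 with the trend over brightness removed, and 73 and 886 with no centring. The differences were small. Of all genes, 90% lay between -0.50 and 0.51, and 3 genes exceeded 1 upward and 14 downward. The 95% confidence interval of a gene reached a median of 0.51 to either side, so changes under this size were mostly not detectable with 4 arrays a group. That limit holds for 1 gene without adjustment over all probes. A call mostly needed a larger difference, and without the block none of the 3 and 14 genes beyond 1 was called. The 4 Ts-TPA values lay wholly above the 4 WT-TPA values for 127 genes (2.31%) and wholly below for 93 (1.69%), together 4% of the genes. Ts-TPA was higher at all 4 replicate numbers for 705 genes (12.8%) and lower at all 4 for 551 (10%).

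Differences varied with brightness. With the genes ranked by brightness into 5 bins of equal size, the median difference was 0.15 in the dimmest bin, then 0.07, 0.01 and -0.0013, and -0.07 in the brightest. In the dimmest bin 57 genes had all Ts-TPA values above WT-TPA and 11 had all below, while the brightest bin had 8 and 27. After neqc the same 5 medians were -0.05, 0.0014, 0.01, 0.04 and 0.0022. Of the genes detected on every array of one genotype and on none of the other, 25 were detected in WT-TPA and 1, Pard3, in Ts-TPA. The difference in background moved with both counts, and its part in them was not tested.

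**Figure D1:**
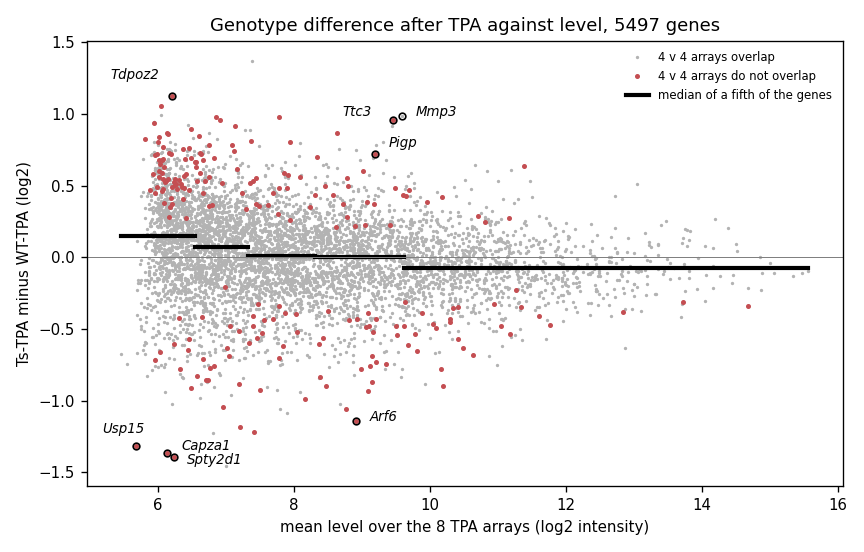
Each point is 1 of 5497 genes, with its mean log2 intensity over the 8 TPA arrays on the x axis and Ts-TPA minus WT-TPA (log2) on the y axis. Red points are genes whose 4 and 4 arrays do not overlap, and black lines are the median differences of 5 bins of equal size, which pass from 0.15 in the dimmest to -0.07 in the brightest.

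Spty2d1, a chromosome 7 gene for a histone chaperone that travels with elongating RNA polymerase, had the lowest p of all genes. Its log2 intensity was 6.54, 7.26, 6.79 and 7.13 in WT-TPA replicates 1 to 4 and 5.16, 5.78, 5.62 and 5.59 in Ts-TPA. All 4 Ts-TPA arrays lay below all 4 WT-TPA arrays, with a difference of -1.39 ± 0.25 and an adjusted p of 0.0888 in limma. Fitted on the TPA arrays alone, without the untreated ones, the adjusted p was 0.484. With the replicate number as a block its adjusted p was 0.00636 (0.047 on the TPA arrays alone), and it was the only gene called. This call was lost without replicate 1 (adjusted p = 0.0677 with the block), without replicate 2 (0.141) and without replicate 4 (0.0721). The probe was detected on 4 of 4 WT-TPA arrays and 0 of 4 Ts-TPA arrays, so it passed the filter through WT-TPA alone and its Ts-TPA level is not above background. On the scale used here it was at least 1.56-fold lower. Its raw signals overlapped, at 229 to 303 units in WT-TPA and 229 to 278 in Ts-TPA, and the difference rests on the background taken off: it was -0.55 with quantile normalization of log2 signals from which no background was taken, and -0.49 with the authors' normalized values. In untreated cells the difference was -0.97 (adjusted p = 0.156). There the probe was detected on 4 of 4 WT-NT and 0 of 4 Ts-NT arrays, so the Ts-NT level is not above background and that value is not exact.

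A further 9 genes with the lowest p among those with all Ts-TPA values below had adjusted p of 0.172 to 0.354. With quantile normalization 7 of the 10 moved by over 1.5 times, to between -0.81 and -0.42 for the 10 together. Arf6, a small GTPase of endocytic recycling and cortical actin, measured 9.33, 9.94, 9.44 and 9.22 in WT-TPA and 8.25, 8.56, 8.16 and 8.42 in Ts-TPA. Its groups were parted by a wide gap well above background, and the difference was -1.14 ± 0.24 (adjusted p = 0.172). Capza1 encodes a subunit of the protein that caps the fast-growing ends of actin filaments. Its values were 7.06, 7.25, 6.51 and 6.46 in WT-TPA against 4.81, 6.16, 5.68 and 5.18 in Ts-TPA. It was undetected on all 4 Ts-TPA arrays, which bounds the fold at 1.45 or more on this scale (-0.51 with quantile normalization, -0.46 with the authors' values). Usp15, a deubiquitinating enzyme, was undetected there too, with a bound of at least 1.04-fold, and Ts-TPA replicate 4 (4.01) lay far under the other Ts-TPA arrays (5.32 to 5.39).

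The remaining members of this group were Map1lc3a (-1.18 ± 0.29), whose product coats autophagosomes, Mrpl11 (-0.92 ± 0.22) of the large mitochondrial ribosomal subunit, the nucleotidase gene Cant1 (-0.88 ± 0.22), Ap4s1 (-0.74 ± 0.19) of the AP-4 vesicle coat adaptor, Tinagl1 (-1.22 ± 0.32) of the extracellular matrix, and Klhl21 (-1.06 ± 0.28), a cullin 3 adaptor of dividing cells. The most negative difference of any gene belonged to St13, a co-chaperone of Hsp70, which is named here after its values were seen. St13 measured 7.82, 7.95, 7.62 and 7.53 in WT-TPA and 5.76, 5.71, 5.84 and 7.79 in Ts-TPA. Ts-TPA replicate 4 lay within the WT range, and the difference was -1.46 ± 0.37 (adjusted p = 0.347). Without that array St13 had an adjusted p of 0.00714 and was the 1 gene called, lower in Ts-TPA.

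**Figure D2:**
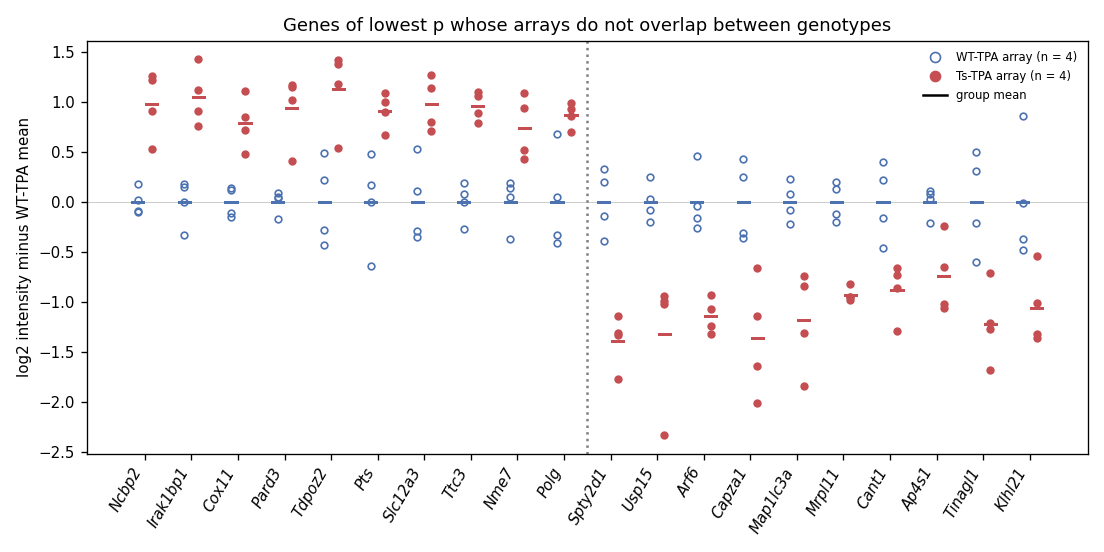
Points are log2 intensities of single arrays minus the WT-TPA mean of the gene on the y axis, open for WT-TPA and filled for Ts-TPA (n = 4 each), with bars for group means. The 10 genes to the left have all Ts-TPA values above and the 10 to the right all below, with Spty2d1 the only one called with the replicate block.

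The 10 genes with the lowest p among those with all Ts-TPA values above had adjusted p of 0.172 to 0.347. Their differences of 0.74 to 1.13 depended on the background taken off: with quantile normalization they were 0.21 to 0.80 and with the authors' values 0.29 to 0.76, and 9 of the 10, all but Ttc3, moved by over 1.5 times in each. Ncbp2 encodes the small subunit of the nuclear cap binding complex and lies on chromosome 16 outside the trisomic segment. It measured 6.38, 6.26, 6.27 and 6.54 in WT-TPA and 6.89, 7.57, 7.62 and 7.27 in Ts-TPA. All 8 arrays detected it, and the difference was 0.98 ± 0.20. Cox11 (0.79 ± 0.17), needed to assemble cytochrome c oxidase, and Polg (0.87 ± 0.22), the mitochondrial DNA polymerase, were members of the same group. Pard3, a cell polarity scaffold, was detected on 0 of 4 WT-TPA and 4 of 4 Ts-TPA arrays and was at least 1.54-fold brighter in Ts-TPA on the scale used here (a difference of 0.24 with quantile normalization). The other members were Irak1bp1 (1.05 ± 0.22), Pts (0.91 ± 0.21) of tetrahydrobiopterin synthesis, the sodium chloride cotransporter gene Slc12a3 (0.98 ± 0.24), Nme7 (0.74 ± 0.19), Tdpoz2 (1.13 ± 0.25) and Ttc3. Irak1bp1 was detected on 1 of 4 WT-TPA and 3 of 4 Ts-TPA arrays, Tdpoz2 on 1 and 4, and Polg on 2 and 4. Their WT-TPA levels are partly or mostly not above background, so their differences are not exact. Tdpoz2 has near-identical copies in the mouse genome that its probe may not tell apart. For Nme7 the other 2 probes gave -0.28 and -0.04, and on the first of them all Ts-TPA values lay below, so its probes disagreed.

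The trisomic segment itself was examined next, since its genes have an extra copy in every Ts cell. Of 30 genes listed for it, 28 had a probe and 12 passed the filter. Above the median of all probes were 10 of the 12 (83.3%, against 52.1% of all genes). The median difference of the 12 was 0.21 against 0.02 for all genes. None was called. The median was 0.34, 0.14, 0.35 and 0.34 at replicate numbers 1 to 4. With neqc and with quantile normalization Dyrk1a passed below and 9 of 12 lay above, with medians of 0.18 and 0.09. Leaving out single arrays gave medians from 0.17, without WT-TPA replicate 4, to 0.38, without WT-TPA replicate 1, and 0.36 without Ts-TPA replicate 3. The number above the median ran from 7 of 12 without Ts-TPA replicate 1, and 8 without WT-TPA replicate 3, to 11 without WT-TPA replicate 1. For 3 of the 12 (25%, against 2.31% of all genes) all Ts-TPA values lay above WT-TPA. Along the rest of chromosome 16, 87 of 160 genes lay above the median and the median difference was 0.04. Other mouse orthologs of 21q22 genes, which have no extra copy in Ts cells, were read as 2 lists. On chromosome 16 outside the segment 9 of 16 lay above the median (median difference 0.07). On chromosomes 17 and 10 it was 12 of 16 (75%), with a median of 0.18 and medians of 0.10, 0.40, 0.12 and 0.19 at the 4 replicate numbers, close to those of the segment. Whether the segment departed from this list was not tested.

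Ttc3 stood out among the 12. On its brightest probe it measured 9.17, 9.06, 8.71 and 8.99 in WT-TPA and 9.87, 10.04, 9.77 and 10.08 in Ts-TPA. The 2 groups were apart by 0.96 ± 0.24 (1.94-fold, adjusted p = 0.347), and the other 3 probes of Ttc3 gave 0.91, 0.85 and 0.71. All 4 probes were higher at all 4 replicate numbers. Pigp, of the enzyme complex that starts the synthesis of GPI anchors, measured 8.36, 9.05, 9.01 and 8.93 against 9.31, 9.84, 9.86 and 9.21. Its groups did not overlap (0.72 ± 0.22, adjusted p = 0.370), and a second probe gave 0.63. Brwd1, a bromodomain protein, had all Ts-TPA values above on the brightest probe (0.48 ± 0.25), where WT-TPA replicate 2 was low at 5.46, and a second probe with overlapping groups gave 0.45.

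The other members overlapped between genotypes. Ets2 measured 11.78, 11.38, 10.78 and 10.94 in WT-TPA and 12.23, 12.12, 11.31 and 11.32 in Ts-TPA. It was higher in Ts-TPA at each number, while the spread between numbers was as wide as the difference (0.53 ± 0.29, adjusted p = 0.626). Chaf1b, a subunit of the chromatin assembly factor of S phase, gave 0.56 ± 0.39 and ranged from 6.31 to 8.44 in WT-TPA. Morc3 (0.21 ± 0.19), Psmg1 (0.21 ± 0.28), a proteasome assembly chaperone, Dyrk1a (0.17 ± 0.26), Bace2 (0.16 ± 0.28), a protease related to β-secretase, and the carbonyl reductase gene Cbr3 (0.10 ± 0.47) had differences smaller than their errors or close to them. Below the median lay Cbr1, a second carbonyl reductase (-0.48 ± 0.31), and Hmgn1, a nucleosome binding protein (-0.25 ± 0.28). Cbr1 was detected on 3 WT-TPA arrays and 1 Ts-TPA array, and Dyrk1a on 3 and 2. The 16 genes with a probe below the filter were detected on 0 to 3 of the 8 arrays, Fam3b on 3 WT-TPA and 0 Ts-TPA arrays, and among them were Sim2, Dscam, Kcnj6 and Erg, which are known from brain or blood vessels.

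**Figure D3:**
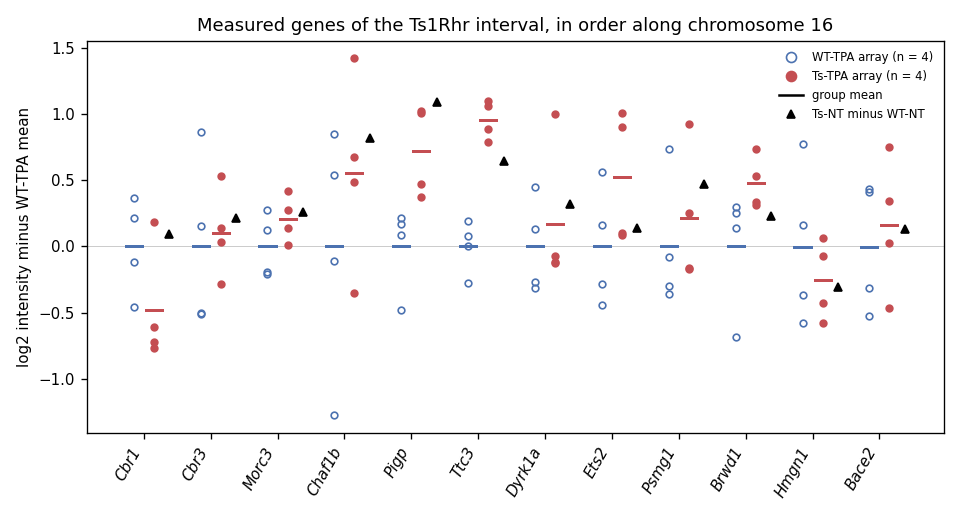
Log2 intensity minus the WT-TPA mean is on the y axis for the 12 measured genes of the trisomic segment, in their order on chromosome 16, with open WT-TPA and filled Ts-TPA arrays (n = 4 each) and bars for group means. Triangles give Ts-NT minus WT-NT in untreated cells. Ttc3, Pigp and Brwd1 have no overlap between genotypes after TPA.

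The study followed 13 candidate genes, several of them picked on these same arrays, so their direction here is not independent evidence. All 12 measured ones (Kcnj15 was detected on 2 of 8 arrays) had a difference above that of the median gene, with a median of 0.35. Of these, Pigp, Ttc3, Ets2, Cbr3, Chaf1b, Dyrk1a and Bace2 are also members of the trisomic segment, so both lists hold them. With neqc and with quantile normalization this held for 10 of 12, the exceptions being Dyrk1a and Elk3, and with the brightness trend removed for 11, all but Elk3. The median was 0.21 with the authors' normalized values. None was called, and 2 (16.7%, against 2.31% of all genes), Ttc3 and Pigp, had groups that did not overlap. Mmp3, stromelysin 1, a protease of basement membrane and matrix proteins and a classic target of AP-1, measured 8.85, 8.54, 9.37 and 9.64 in WT-TPA and 9.47, 10.58, 9.83 and 10.47 in Ts-TPA. Ts-TPA was higher at all 4 numbers, yet the groups overlapped (0.99 ± 0.41, 95% confidence interval 0.14 to 1.84, adjusted p = 0.470), and 2 other probes of Mmp3 gave 0.32 and 0.05. Mmp9, gelatinase B, measured 7.94, 10.06, 8.18 and 9.06 against 8.10, 11.05, 9.51 and 9.72. Arrays of 1 genotype spread wider than the means of the genotypes lay apart. The difference was 0.79 ± 0.64 (adjusted p = 0.811), and it ran from 0.30 without Ts-TPA replicate 2 to 1.29 without Ts-TPA replicate 1. The candidates that are diploid in Ts cells and are linked to Ras signaling or NFAT had small differences. Rcan1, an inhibitor of calcineurin, gave 0.16 ± 0.22, and Rab32, a GTPase of melanosome and mitochondrial traffic, gave 0.14 ± 0.34. The ETS factor Elk3 gave 0.04 ± 0.19. Elk3 was detected on 4 WT-TPA arrays but 1 Ts-TPA array, so its Ts-TPA level is mostly not above background.

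AP-1 binds the TPA response element TGACTCA, read on the other strand as TGAGTCA. Both strands of the 250 bases before the start of each gene in RefSeq (GRCm38.p6) were searched, and 4.46% of 32851 promoters held it. Counted by gene, where any 1 start is enough, the share was 5.16% of 27025 genes. The candidates and the trisomic segment were counted by gene. Of the 12 measured candidates 10 were matched to a promoter. Mmp9 was not among the 10, so it was not searched. Of the 10 candidates 2 held the element, Mmp3 and Rcan1, and of 11 matched genes of the trisomic segment 0 did. Both windows are shown because they are the 2 searched candidates with this element. Their genotype differences were 0.99 for Mmp3 on its brightest probe and 0.16 for Rcan1, and neither was called. Capitals mark the element, which begins 46 bases before the start in Mmp3 (chr9:7445572-7445821, plus strand) and 110 bases before it at a downstream start of Rcan1 (chr16:92400079-92400328, minus strand).
Mmp3: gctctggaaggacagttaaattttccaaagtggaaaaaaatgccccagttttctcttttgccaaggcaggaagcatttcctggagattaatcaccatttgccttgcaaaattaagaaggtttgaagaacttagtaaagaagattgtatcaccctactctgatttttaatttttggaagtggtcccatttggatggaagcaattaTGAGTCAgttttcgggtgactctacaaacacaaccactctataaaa
Rcan1: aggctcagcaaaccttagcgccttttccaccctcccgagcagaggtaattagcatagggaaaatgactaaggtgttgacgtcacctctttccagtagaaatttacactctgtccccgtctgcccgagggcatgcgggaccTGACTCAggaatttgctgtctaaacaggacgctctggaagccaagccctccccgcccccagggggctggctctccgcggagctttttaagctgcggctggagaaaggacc
The match is a description of the sequence. The array did not measure binding.

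Other proteases and their inhibitors spread to both sides. Of 20 measured genes of extracellular proteolysis, 12 lay above the median (60%, median difference 0.07), and Adam9 and Bmp1 (10% of the list, against 2.31% of all genes) had all Ts-TPA values above. Adam9, a membrane protease that sheds growth factors, measured 8.70, 8.65, 8.89 and 8.64 in WT-TPA and 9.08, 9.19, 9.73 and 9.29 in Ts-TPA. WT-TPA arrays lay close together and all Ts-TPA arrays above them (0.60 ± 0.18, adjusted p = 0.362). Bmp1, procollagen C-proteinase, gave 0.56 ± 0.20, but its 2 dimmer probes gave 0.0025 and 0.32. Hmga2, a chromatin protein that ERK signaling induces, measured 5.73, 6.26, 6.47 and 5.67 in WT-TPA and 6.77, 6.74, 7.29 and 6.94 in Ts-TPA. Its groups did not overlap (0.90 ± 0.31, adjusted p = 0.420).

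**Figure D4:**
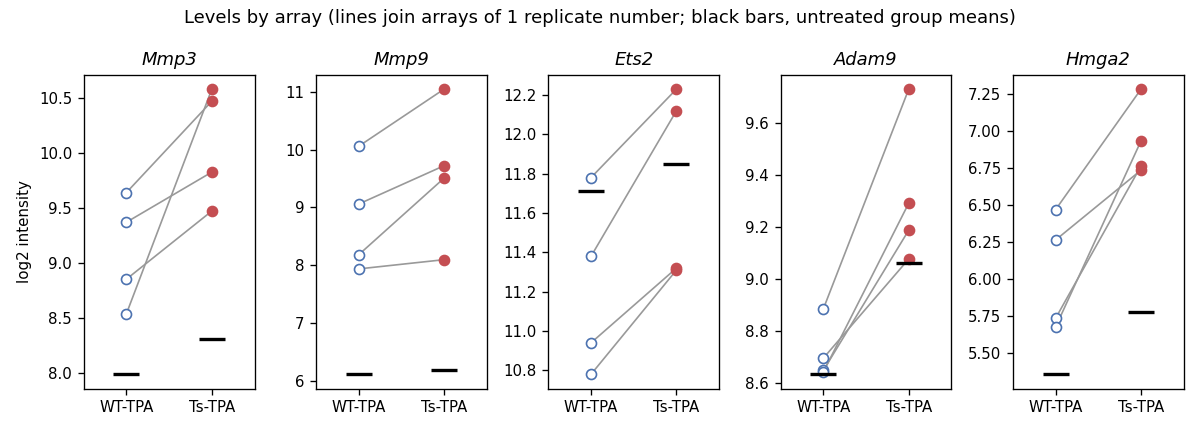
Log2 intensity (y axis) of Mmp3, Mmp9, Ets2, Adam9 and Hmga2 on single WT-TPA and Ts-TPA arrays (x axis), with a line joining arrays of 1 replicate number and black bars for the means of the untreated groups. Each line goes up, at all 4 numbers for each of the 5 genes, and in Adam9 and Hmga2 the groups do not overlap.

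Differentiation genes were read as 2 lists, of which no member was called. Of 14 measured genes of the spinous layer, the suprabasal cells in which keratinocytes stop dividing, 1 lay above the median of all probes. This is 7.14%, against 52.1% of all genes, and the median difference of the 14 was -0.15. None had groups apart. The list's median was -0.40, -0.08, -0.05 and -0.27 at the 4 replicate numbers. Sfn, the 14-3-3 protein of stratified epithelia, measured 11.74, 12.00, 10.71 and 10.62 in WT-TPA and 11.31, 11.01, 10.61 and 10.43 in Ts-TPA. Ts-TPA was lower at each number within a wide spread (-0.43 ± 0.36). Suprabasin (Sbsn, -0.35 ± 0.24, and -0.56 on a second probe) and desmoglein 3 (Dsg3, -0.29 ± 0.24) were lower at each number as well, and Grhl1, a transcription factor of desmosome genes, was the 1 gene above. These genes are mostly bright, and the brightest bin of all genes had a median of -0.07. With the trend over brightness taken out, 1 of 14 lay above, with a median of -0.14, and 1 of 14 with neqc, with a median of -0.17. Leaving out single arrays gave medians from -0.23, without Ts-TPA replicate 2, to -0.09, without WT-TPA replicate 2. Without WT-TPA replicate 1 or 2, 4 of 14 lay above.

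Of 32 measured genes of the cornified envelope, the crosslinked protein shell of dead surface cells, 9 lay above the median (28.1%, median difference -0.05). At the replicate numbers the median was -0.40, -0.02, 0.04 and -0.03, so the lower values came from number 1. Without Ts-TPA replicate 1 the median was 0.10, with 21 of 32 above. Lce3b, a late envelope protein, measured 12.03, 12.21, 11.67 and 12.06 in WT-TPA and 10.54, 11.76, 11.77 and 11.62 in Ts-TPA. Only Ts-TPA replicate 1 was far below (-0.57 ± 0.28, adjusted p = 0.567). Its 2 dimmer probes gave -0.98, with groups that did not overlap, and -0.62, again with replicate 1 lowest. Klk5, a protease that sheds surface cells, was lower at each number (-0.57 ± 0.25, adjusted p = 0.480). The 13 measured wound keratins and alarmins, among them Krt16 (0.04) and S100a8 (-0.27 ± 0.29), had 6 above the median and list medians from -0.76 to 0.36 across the numbers. Slpi, a secreted protease inhibitor, measured 11.05, 10.66, 10.69 and 11.14 in WT-TPA and 10.71, 11.14, 12.16 and 11.97 in Ts-TPA. Replicates 3 and 4 set its difference (0.61 ± 0.29, adjusted p = 0.520).

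Basal cell genes had 7 of 12 above the median (58.3%) and a median of 0.02. Krt5 and Krt14, the keratin pair of dividing keratinocytes, gave 0.27 and -0.10. Cell cycle genes varied widely between arrays of 1 genotype. Of 20 S phase genes 13 lay above the median (median 0.07), and of 11 G2/M genes 6 did (median 0.05). Pcna, the sliding clamp of DNA polymerase, was lower in Ts-TPA at each number (9.30, 7.36, 7.87 and 8.25 against 7.98, 6.56, 7.09 and 8.16), whereas Tk1, a thymidine kinase of S phase, was higher at each (7.97, 5.92, 6.27 and 7.42 against 8.26, 6.59, 7.84 and 7.45). Both spreads exceeded 1 log2 unit within a genotype, and the differences were -0.74 ± 0.42 and 0.64 ± 0.42. Leaving out single arrays moved the S phase median from -0.24, without WT-TPA replicate 2, to 0.30, without Ts-TPA replicate 2. The G2/M median moved from -0.27, without WT-TPA replicate 2, to 0.45, without WT-TPA replicate 1.

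The signaling routes of TPA showed no common direction. Of 10 measured protein kinase C and phorbol ester receptor genes 5 lay above the median (median 0.01). Prkcz, an atypical isoform that phorbol esters do not bind, gave 0.62 ± 0.27, Prkch, an isoform of differentiating keratinocytes, gave 0.43 ± 0.26, and Prkcd gave -0.31. AP-1 and immediate early genes had 7 of 11 above (median 0.03), with Fosl1 at 0.37 ± 0.27 and Maff at -0.49 ± 0.38. The second probe of Maff gave 0.65 ± 0.22, so its probes disagreed. ERK feedback genes and targets had 6 of 14 above (median -0.09), with Ccnd1, cyclin D1, at -0.46 ± 0.33 and lower at each number. Other probes of Ccnd1 gave -0.41 and 0.03. Small GTPases of the Ras and Rab families had 10 of 20 above (median -0.002). Rras measured 9.55, 9.87, 10.12 and 10.38 in WT-TPA and 9.25, 9.44, 9.26 and 9.55 in Ts-TPA. The highest Ts-TPA array reached the lowest WT-TPA array without passing it (-0.61 ± 0.21, adjusted p = 0.420). Of 19 cytokine, chemokine and NF-kB genes 12 lay above (63.2%, median 0.12). Il1a gave 0.48, while the feedback inhibitors Nfkbia (-0.64 ± 0.27) and Tnfaip3 (-0.47) lay below.

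Lists of housekeeping functions had medians near that of all genes, with glycolysis the furthest from it. The share of genes above the median ran from 28.6% for glycolysis (4 of 14) to 53.3% for mitochondrial ribosomal genes, against 52.1% of all genes. The medians were -0.05 for 53 respiratory chain, 0.03 for 50 cytosolic ribosomal, 0.01 for 60 mitochondrial ribosomal, -0.05 for 34 proteasome, -0.10 for 14 glycolysis, -0.02 for 24 ER and heat stress and -0.01 for 21 sterol and fatty acid genes. Actin cytoskeleton genes had 12 of 34 above (35.3%, median -0.04), and with the trend over brightness taken out 19 of 34 lay above. Pfn1, profilin, which feeds actin monomers to growing filaments, was lower at each number (-0.69 ± 0.25, adjusted p = 0.434), and its second probe gave -0.63. Ywhag, a 14-3-3 adaptor, measured 9.71, 10.01, 9.35 and 9.24 in WT-TPA and 8.60, 8.50, 8.91 and 8.83 in Ts-TPA. Its groups did not overlap (-0.87 ± 0.24, adjusted p = 0.359), and untreated cells gave -1.20 (adjusted p = 0.0986). Of 13 p53 targets 10 lay above the median (median 0.16), with list medians of 0.16, 0.38, -0.16 and -0.08 at the 4 numbers and of -0.03 without WT-TPA replicate 2. Of 16 NRF2 antioxidant genes 10 lay above (median 0.14, and 0.05 with 8 above without WT-TPA replicate 3), and at number 2 the median was -0.08. None of these genes was called.

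**Figure D5:**
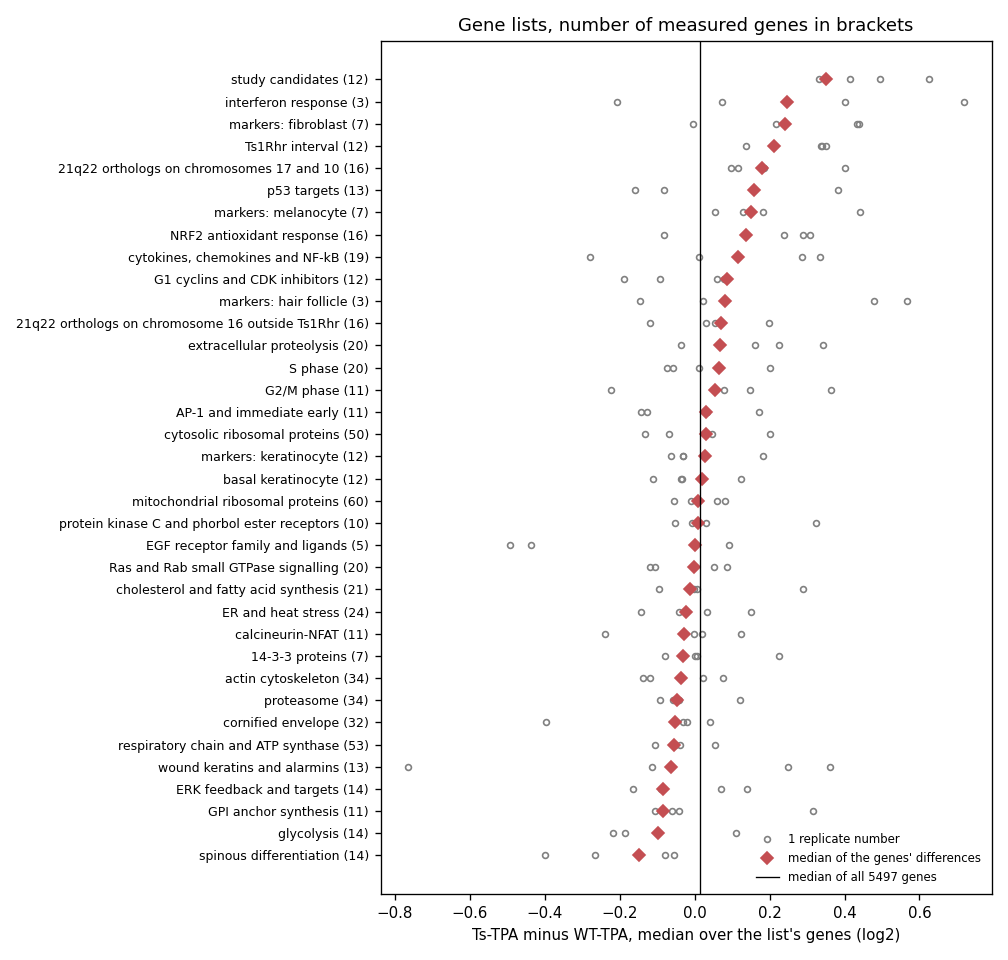
The x axis gives Ts-TPA minus WT-TPA (log2) as the median over each list's measured genes, with red diamonds for the difference of group means, open circles for single replicate numbers and a line at the median of all 5497 genes (0.02). The candidates (0.35) and the trisomic segment (0.21), which share members, lie to the right of the line at all 4 numbers. So do the 21q22 orthologs on chromosomes 17 and 10 (0.18) and the melanocyte markers (0.15). The spinous list (-0.15) lies to the left at all 4.

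Whether the genotype difference with TPA departed from that in untreated cells was tested as a difference of differences, with the untreated and the treated array of each genotype and number as 1 of 8 blocks. No gene was called (0 of 5497, 0%), the lowest adjusted p was 0.9996, and at an unadjusted p under 0.05 there were 115 genes with a more positive and 116 with a more negative difference after TPA. Pard3 had a genotype difference of 0.05 in untreated cells and 0.94 with TPA, a change of 0.88 ± 0.29. It was detected on 3 of 4 WT-NT, 1 of 4 Ts-NT and 0 of 4 WT-TPA arrays and passed the filter through Ts-TPA alone. These values of Pard3 are therefore not exact. For Mmp3 the difference was 0.32 untreated and 0.99 with TPA (change 0.66 ± 0.45), and for Mmp9 0.07 and 0.79 (change 0.71 ± 0.91). Mmp9 was detected on 1 of 4 WT-NT and 1 of 4 Ts-NT arrays, so its untreated levels are mostly not above background and its values there are not exact. Pigp went the other way, from 1.09 untreated to 0.72 with TPA (change -0.38 ± 0.26). The trisomic segment had a median of 0.25 untreated against 0.21 with TPA. The comparisons share no arrays, and with these errors a change of the size seen for Mmp3 could not be told from 0.

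Markers of other skin cells were read in the same arrays. In bulk RNA fewer cells of a type and less RNA per cell cannot be told apart. Of 15 fibroblast markers on the array 7 passed the filter and 5 of these lay above the median, with a median difference of 0.24 (0.55 in untreated cells). Their mean level was 6.94 to 7.43 on Ts-TPA and 6.52 to 7.30 on WT-TPA arrays. Vimentin gave -0.02 ± 0.33, and Col1a1, Col1a2, Lum, Pdgfra, Pdgfrb and Postn were undetected on all 8 arrays. Of 8 melanocyte markers 7 passed and 6 lay above (median 0.15), with mean levels of 9.68 to 10.16 on Ts-TPA and 9.35 to 10.01 on WT-TPA arrays. On their brightest probes Slc45a2 (0.41 ± 0.22) and Gpnmb (0.40 ± 0.28) were higher at each number. The part of these cells in the values of Bmp1, Mmp3 or other matrix genes was not tested.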

How the data were processed

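RNA of 16 keratinocyte samples was hybridized to Illumina MouseRef-8 v2.0 arrays in 1 color. The authors deposited raw intensity values and a detection p-value per probe, and log2 values made with vsn. The submitters' processing notes name limma, without a version. No slide, scan date or scanner software was given in the sources used here. No column was left unmapped. From the intensity values the vsn model was written anew in R 4.3.3 (offset and factor per array, share 0.9, 7 rounds, 10 strata) and fitted on all 16 arrays, and each array was centred on the median of the 7434 probes. limma 3.58.1 compared the 4 group means, with Benjamini-Hochberg adjustment over all probes and a threshold of 0.05. statmod 1.5.0 served the random block. The scripts were tested on simulated data.

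A gene took its called probe or else its brightest one (23978 probes have 1 symbol, 1719 none). Named genes are those called, the 10 of lowest p each way among genes whose groups do not overlap, the trisomic segment, the candidates, and the 2 of lowest p in each list. Other list members named were chosen after their values were seen. The members and lists were chosen with earlier results of these data known. Folds of genes undetected in 1 group are bounds against the dimmest detected signal.

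Whether replicate numbers pair the arrays was checked on deviations from group means. Ts-TPA and WT-TPA arrays of the same number correlated at 0.59, 0.57, 0.37 and 0.26, and each correlated best with its own number, so the numbers were taken as pairs. No source used here says what a number shares. Alternatives covered normalization, centring, filter, block and left-out arrays. The number of arrays limits the precision.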

Additional observations from a re-analysis of the deposited data

Results flagged for a closer look

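In groups of 4 TPA arrays, 13 of 218 groups tested (5.96%) had 1 array far from the other 3, where chance gives about 5%. The tests covered 104 named genes and 5 measures of array quality, none of which was among the 13. In Ts-TPA these were replicate 4 for Usp15 (4.01), replicate 3 for Dyrk1a (6.99) and replicate 1 for Cbr1 (6.17), Lce3b (10.54) and Cxcl12 (5.20). In WT-TPA replicate 2 was low for Brwd1 (5.46), Cxcl12 (5.18) and Rbl1 (4.33), a pocket protein of the retinoblastoma family, and high for Dusp10 (6.87) and Msmo1 (11.57), a sterol synthesis enzyme. WT-TPA replicate 1 was high for Phlda3 (8.23), a p53 target, and low for Gsta4 (5.68), a glutathione transferase, and replicate 4 was low for Ywhae (7.89). All values are log2 intensities.

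For Dyrk1a the other 3 Ts-TPA arrays were 5.86 to 5.92, and without replicate 3 its genotype difference was -0.10. For Usp15 the other 3 Ts-TPA arrays were all undetected as well. For Brwd1 the other WT-TPA arrays were 6.28 to 6.44, below all Ts-TPA arrays (6.46 to 6.89). For Cxcl12, a chemokine, the difference of 0.72 ± 0.31 came with Ts-TPA replicate 1 at the level of WT-TPA. Their causes were not tested.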

How the results depend on the processing

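The count of called genes was 0 in the main comparison. It became 2 with neqc (Spty2d1 and Usp15, lower on that scale), 1 with no centring (Spty2d1) and, by an alternative chosen after seeing the data, 1 with the brightness trend removed (Spty2d1). The replicate block gave 1 (Spty2d1), 1 on the 8 TPA arrays alone, 3 with neqc, 5 with quantile normalization (Ttc3 higher, and Arf6, Capza1, Spty2d1 and Tinagl1 lower), 1 with the authors' values (Arf6), 2 with the trend removed and 152 with no centring (5 higher, 147 lower). Spty2d1, Usp15 and Capza1 were detected on 4 of 4 WT-TPA and 0 of 4 Ts-TPA arrays. They passed the filter through WT-TPA alone, so their calls in several settings are not separate support. The raw signal of Usp15 was 204 to 235 units in WT-TPA and 225 to 256 in Ts-TPA. With no filter and arrays centred on all probes, also added later, 463 were called (11 higher, 452 lower): this centre, set mostly by undetected probes, shifts every gene by -0.35. The count stayed at 0 with quantile normalization, the authors' values, no filter, the methods' filter, detection on all 8 arrays, the 8 arrays alone and a random block on genotype and number. Leaving out arrays gave 0 to 1, the 1 being St13 without Ts-TPA replicate 4, or with the block without replicate 4, and Spty2d1 with the block without replicate 3. With the main normalization and all arrays, the block changed no call other than that of Spty2d1. There the other 19 genes of lowest p had adjusted p of 0.0513 to 0.128 with it and 0.172 to 0.354 without. The difference of differences stayed at 0 calls in every setting run, with and without the block on genotype and number.

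Values of 104 genes and 36 list medians kept their sign or moved less than the spread in 3914 of 4025 recalculations. This share is partly fixed by the settings and is no measure of robustness. With no filter, the methods' filter, the TPA arrays alone or a block alone, Spty2d1 stayed at -1.389 and the segment median at 0.2108. A gene that kept its sign also counted where its size fell, as Irak1bp1 did from 1.05 to 0.29 with quantile normalization. Dyrk1a became -0.078 with neqc and -0.00702 with quantile normalization, with or without the block. Elk3 became -0.25 with neqc, -0.069 with quantile normalization and -0.13 with the trend removed. Krt18 became -0.029 with neqc, Lpl -0.056 with quantile normalization and -0.052 with the authors' values, and Krt17 0.031 with neqc and 0.032 with quantile normalization. Leaving out single arrays gave ranges through 0 for Cbr3 (-0.066 to 0.39), Dyrk1a (-0.10 to 0.32), Psmg1 (-0.026 to 0.46), Hmgn1 (-0.44 to 0.0092), Bace2 (-0.034 to 0.37), Elk3 (-0.039 to 0.15), Rab32 (-0.094 to 0.37), Lpl (-0.52 to 0.37), Krt18 (-0.083 to 0.44), Krt17 (-0.21 to 0.0067) and Vim (-0.24 to 0.30). With the block and 1 number left out, Rcan1 became -0.044, Elk3 -0.025 and S100a8 0.064 without replicate 1, Lpl -0.375, Sox9 -0.0090 and Vim 0.334 without replicate 2, and Cbr3 -0.077 and Bace2 -0.0021 without replicate 4. The cause was not tested. Differences of genes near background rest on the background correction: for Spty2d1 it was -1.72 with neqc, and with quantile normalization 9 of the 10 genes of lowest p above and 7 of the 10 below moved by over 1.5 times.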
